A study of Mus musculus with 26 samples.

Results

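The genes described here are the 503 genes of mouse chromosome 8 whose first listed start lay at 30 Mb or beyond and whose mean count was at least 50 over the 6 libraries of the count table. They were 503 of the 25239 genes of that table, and 503 of the 10733 genes with the same mean count. Another 102 genes of chromosome 8 reached that count and started below 30 Mb. At any count, 928 genes started at 30 Mb or beyond, so the members are the more highly counted part of that stretch. The position and the count floor were selected on the counts themselves, because these genes were jointly higher in 1 knockout line of that table, so the values of the count table that follow are a description and carry no test. Tests were made in the TPM tables, whose libraries the choice did not use.

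RNA was sequenced from C57BL/6 mouse embryonic stem cells grown with serum on gelatin, either wild type (WT) or knocked out for Hmces (HMCES-KO), the gene of a protein that binds abasic sites in DNA. The count table held 2 untreated libraries each of WT, KO7 and KO8. A separate table of TPM, reads per gene length scaled to 1000000 per library, held 2 WT and 2 HMCES-KO untreated libraries. Each of 4 further TPM tables held 2 WT libraries and 1 library each of HMCES-KO1 and HMCES-KO2 after 2 h with activin A (50 ng/ml), a ligand of the Nodal/activin receptors, SB431542 (10 µM), an inhibitor of those receptors, BMP4 (10 ng/ml), or LDN193189 (50 nM), an inhibitor of BMP receptors. The labels do not tell which of KO7 and KO8 is KO1, nor which line gave the untreated TPM knockout libraries, which they describe as K81 and K82, with CCE1 and CCE2 for the WT of that table. How the lines were derived, and whether the WT libraries of all tables share a parent culture, is not stated either. The labels name no separate cultures within a group, so the p-values cover the spread among the libraries at hand, which may be of technical origin.

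Mouse chromosome 8 carries unrelated genes of many functions, among them the pluripotency factors Zfp42 and Klf2, the adhesion gene Cdh1 and the adjacent metallothionein genes Mt1 and Mt2. Neighbouring genes can share RNA levels through shared regulatory elements or through the number of copies of the DNA that carries them, and cultured embryonic stem cell lines are known to gain whole chromosomes or parts of them. DNA copy number was not measured in these libraries. In bulk RNA, fewer cells of a type and less RNA per cell cannot be told apart.

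Total counts per library ran from 9.57 to 13.5 in the count table, in units of 1000000 reads, and recovered reads from 8.52 to 10.04 in the untreated TPM table. The depth of the treated tables was not estimated. Hmces, on chromosome 6, was at 38.6% and 39.0% of the WT mean in KO7, 26.6% and 25.1% in KO8, 21.2% and 22.1% in the untreated TPM knockout, 51.7% to 64.1% in KO1 and 25.03% to 34.0% in KO2. The summed level of 10 embryonic stem cell markers was 9305 to 9433 CPM (counts per 1000000 counts) in WT, 9728 to 9875 in KO7 and 9112 to 9116 in KO8. All 10 were detected in every count library. Zfp42, 1 of the 10, is itself a member, at 995 and 1058 CPM in WT, 1325 and 1304 in KO7 and 1010 and 1032 in KO8. Summed CPM of 6 fibroblast markers was 48.3 to 49.9 in WT, 14.4 to 14.8 in KO7 and 19.5 to 20.9 in KO8, with Postn at 0. The 6 endoderm markers summed to 85.9 to 94.9, 28.9 to 30.04 and 10.97 to 14.2, and the 6 trophectoderm markers to 21.0 to 23.2, 14.1 to 16.5 and 29.6 to 30.3, in the same order of lines. The part of these cell type differences in the values below was not tested.

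Mt1 and Mt2 are the neighbouring members at the highest counts that did not follow the joint shift described below, and their promoters are shown for that reason. Metallothioneins bind zinc and copper, and their genes are textbook targets of the metal-responsive factor MTF1, which binds short metal response elements. The 250 bases before each annotated start are given 5′ to 3′ from RefSeq (GRCm38.p6, plus strand), at chr8:94178839-94179088 for Mt1 and chr8:94172368-94172617 for Mt2. Capitals mark TGCACNC or TGCGCNC on either strand.
Mt1: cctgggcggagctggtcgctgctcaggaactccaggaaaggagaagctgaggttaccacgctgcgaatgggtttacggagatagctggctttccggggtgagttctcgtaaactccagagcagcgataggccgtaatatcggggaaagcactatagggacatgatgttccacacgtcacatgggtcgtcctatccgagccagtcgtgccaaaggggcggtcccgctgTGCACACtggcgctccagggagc
Mt2: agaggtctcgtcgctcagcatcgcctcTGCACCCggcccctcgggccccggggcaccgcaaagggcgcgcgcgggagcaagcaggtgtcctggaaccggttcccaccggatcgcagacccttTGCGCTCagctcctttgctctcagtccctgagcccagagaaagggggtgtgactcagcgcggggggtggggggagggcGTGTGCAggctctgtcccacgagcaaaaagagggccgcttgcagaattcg
The Mt1 window held 1 match and the Mt2 window 3. These counts cover only the 250 bases before each annotated start, and matches past that start were not counted. Where transcription starts in these cells was not tested. The counts are therefore not read as the full number of metal response elements of either gene, nor as a difference between Mt1 and Mt2. At least 1 match was present in 21.3% of 27025 RefSeq promoter windows of the same length, and at least 3 in 1.28%. Promoter windows were found by symbol for 381 of the 503 members. Of these, 126 (33.1%) held at least 1 match and 16 (4.199%) at least 3. The 27025 windows were not limited to genes at the members' count floor. The higher shares are therefore not read as a trait of chromosome 8 members. A match is a stretch of letters and not a measured binding site.

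In the count table the members were jointly higher in KO7 and level with WT in KO8. Their median log2 ratio, after TMM scaling of the libraries, was 0.38 for KO7 over WT, 0.00 for KO8 over WT and 0.38 for KO7 over KO8. KO7 was above WT in 437 members (86.9%), where 55.7% of all genes at the same count were above WT. KO7 was above KO8 in 445 members (88.5%) against 52.6% of all genes, and KO8 was above WT in 254 (50.5%) against 52.5%. Nothing is read from these shares, because this table chose the members. Relative to the genes of other autosomes, the median stood at 0.35, -0.01 and 0.37 in the 3 ratios. Scaling by total counts lowered all medians, to 0.30, -0.05 and 0.35, and left the differences from other autosomes at 0.35, -0.01 and 0.37.

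Each library was also set against the WT mean of its own table, and the median over other autosomes was subtracted. The KO7 libraries stood at 0.36 and 0.34 and the KO8 libraries at -0.02 and -0.00. The KO1 libraries stood at 0.35 with activin A, 0.33 with SB431542, 0.32 with BMP4 and 0.36 with LDN193189, a mean of 0.34 ± 0.018 (SD, n = 4). The KO2 libraries stood at 0.00, -0.01, 0.11 and 0.09 in the same order, so those with BMP4 and LDN193189 lay above the other 2. The untreated TPM knockout libraries both stood at 0.32. WT libraries of all tables lay within 0.014 of 0, and the groups with the shift did not overlap with WT or with KO2 and KO8. Each WT library is part of the WT mean it is set against, so the 2 WT values of a table mirror each other about 0. They therefore understate the spread of WT. The KO7 and KO8 values come from the table that chose the members, so their separation is a description only.

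**Figure D1:**
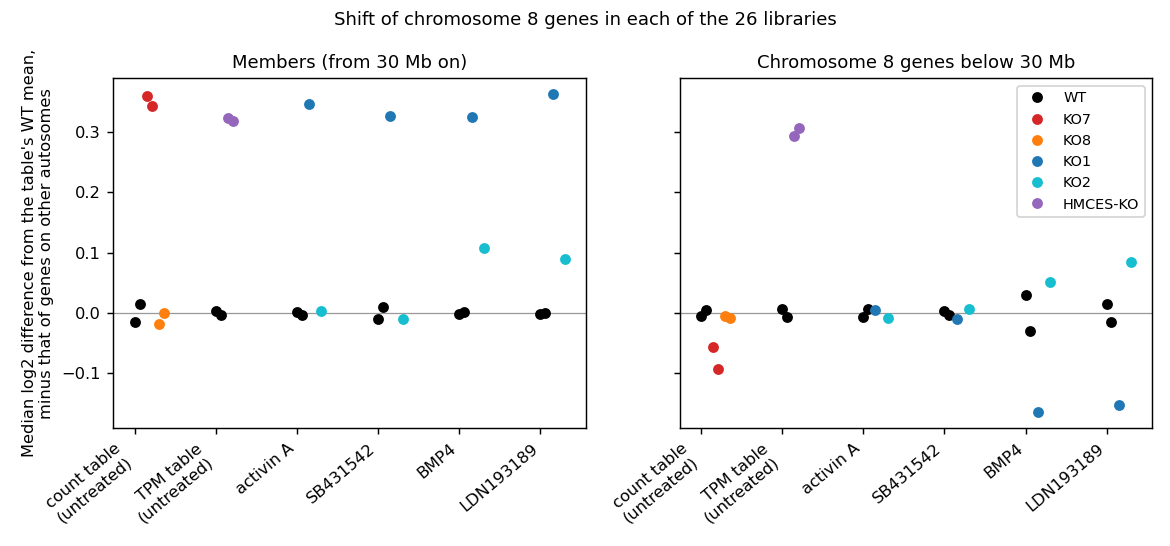
Median log2 difference of each of the 26 libraries from the WT mean of its table, minus that of other autosomes, for the members (left) and for chromosome 8 genes below 30 Mb (right). Each point is 1 library; in the left panel KO7, KO1 and the untreated TPM knockout lie between 0.32 and 0.36, and in the right panel only the untreated TPM knockout lies near 0.3.

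In the count table the shift reached from 30 Mb to the end of the chromosome. In stretches of 10 Mb, the median KO7 over KO8 ratio lay between 0.33 and 0.46 from 30 Mb on, and between -0.09 and 0.02 before it. The stretch from 50 to 60 Mb held 9 members. The last 20 members had a median of 0.41. The last of all, Gm32856 (chr8:129263630-129286570), had 40.03 and 40.9 CPM in KO7, 27.2 and 25.5 in KO8 and 19.7 and 20.9 in WT.

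The edge lay in a stretch with few counted genes. With 20 genes taken on each side, the largest step among 566 positions for KO7 over KO8 was from -0.14 to 0.40, between Eif4ebp1 (chr8:27260327-27275656), a repressor of cap-dependent translation, and Rnf122 (chr8:31111827-31133318), a RING finger gene. The same position gave the largest step for KO7 over WT, from -0.04 to 0.44. The 9 genes between them each had a mean count under 8, so the data do not place the edge more closely than this gap. The 30 Mb threshold falls inside it. In the treated libraries, which did not choose the threshold, the largest of 551 steps for KO1 minus WT was at the same position, from -0.18 to 0.38. For KO1 minus KO2 it was 1 gene earlier, between Adrb3 and Eif4ebp1, from -0.26 to 0.26. For KO8 over WT the largest step was elsewhere, between Klhl2 and Tmem192 (0.45).

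The genes on either side of the thresholds were as follows. Just inside 30 Mb, KO7 over KO8 was 0.52 for Rnf122, 0.57 for Tti2 and 0.26 for Mak16, the last 2 of which overlap on opposite strands. Just outside it was -0.37 for Rab11fip1, -0.29 for Adrb3 and 0.23 for Eif4ebp1. Just above the count floor it was 0.35 for Galns, 0.55 for Pde4c and -1.03 for Gnao1, and just below the floor 0.68 for Pllp, -0.79 for Elmo3 and 0.67 for D030068K23Rik.

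**Figure D2:**
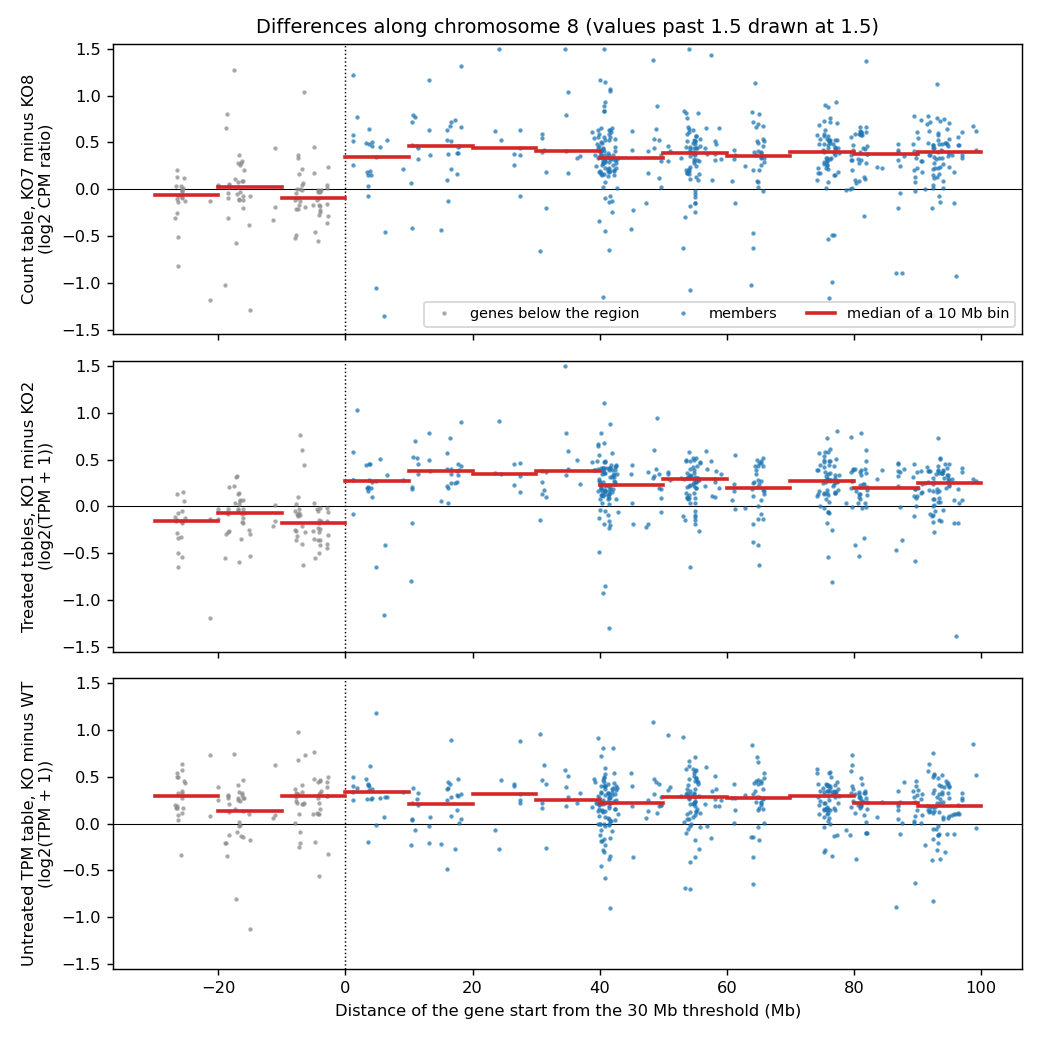
Log2 difference of each gene against its distance from the 30 Mb threshold, for KO7 minus KO8 (count table), KO1 minus KO2 (treated tables) and HMCES-KO minus WT (untreated TPM table), with the median of each 10 Mb stretch in red. The red lines step up at the threshold in the upper 2 panels and lie between 0.13 and 0.34 on both sides of it in the lowest.

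The treated tables showed whether the shift was present in libraries the choice did not use, which may come from the same lines. Of the 503 members, 490 were in all 4 treated tables and 485 passed the filter of a mean TPM of at least 1. By limma on log2(TPM + 1) over all genes of the fit, 219 of 485 members (45.2%) were higher in KO1 than in WT and 38 lower, where 13.1% of all genes were higher and 21.3% lower. In KO2 against WT, 89 were higher and 80 lower, against 12.9% and 17.6% of all genes. Between the knockout lines, 123 members (25.4%) were higher in KO1 than in KO2 and 10 lower, against 2.92% and 4.16% of all genes. KO1 against WT and KO2 against WT share the WT libraries.

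The median over all 490 members was 0.26 for KO1 minus WT, -0.00 for KO2 minus WT and 0.27 for KO1 minus KO2. The medians over other autosomes were -0.08, -0.04 and -0.02. Among the 99 tested genes of chromosome 8 below 30 Mb, 3 were higher in KO1 than in KO2 and 9 lower. From 30 Mb on, the 10 Mb medians of KO1 minus KO2 lay between 0.20 and 0.38, the highest of these in the stretches from 40 to 70 Mb. Those of KO1 minus WT were less even. They ran from 0.15, at 90 to 100 Mb and at 120 to 130 Mb, to 0.50 at 50 to 60 Mb, where 8 members had values. Of the last 20 members, 19 were in these tables. Their median was 0.06 for KO1 minus WT, -0.14 for KO2 minus WT and 0.27 for KO1 minus KO2. KO1 exceeded KO2 in all 4 tables for 233 of 490 members (47.6%) and for 10.4% of genes on other autosomes. KO1 was below KO2 in all 4 tables for 19 members (3.88%) and for 15.5% of genes on other autosomes.

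In the untreated TPM table the shift was present but covered the whole chromosome. By limma, 205 of 501 tested members (40.9%) were higher in HMCES-KO than in WT and 10 were lower, against 5.61% and 9.93% of all genes. The counts rest on each WT library: leaving out either one leaves a group without replicates, and the limma calls of the members were lost. The calls of single-gene differences from WT in that table, given below, carry the same limit. Below 30 Mb, 44 of 102 genes were higher and 3 lower. The median was 0.25 in the members and 0.25 below 30 Mb, with -0.06 on other autosomes. The step at 30 Mb was 0.03 and 0.01 in the 2 knockout libraries, against 0.42 and 0.44 in the KO7 libraries and 0.34 to 0.51 in the 4 KO1 libraries.

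In the BMP4 and LDN193189 tables the KO1 libraries had genes below 30 Mb at -0.16 and -0.15 relative to other autosomes, and in the activin A and SB431542 tables at 0.00 and -0.01. The KO7 libraries had them at -0.06 and -0.09. The KO2 libraries with BMP4 and LDN193189, whose members stood at 0.11 and 0.09, had these genes at 0.05 and 0.08, with steps at 30 Mb of 0.056 and 0.0057. The steps of KO1 at 30 Mb were 0.49 and 0.51 with BMP4 and LDN193189 and 0.34 and 0.34 with activin A and SB431542, while the members themselves stood at 0.32, 0.36, 0.35 and 0.33 in that order.

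Chromosome 8 had the highest median of the 19 autosomes and the X chromosome in KO7 over WT (0.31), KO7 over KO8 (0.33), KO1 minus WT (0.19), KO1 minus KO2 (0.21) and untreated HMCES-KO minus WT (0.25). It ranked 16 in KO8 over WT and 7 in KO2 minus WT. The second highest values were 0.06 in KO7 over KO8 (chromosome 13), 0.02 in KO1 minus KO2 (chromosome 9) and 0.05 in the untreated table (chromosome 6). The lowest value between lines was on chromosome 6, at -0.18 for KO1 minus KO2 and -0.05 for KO7 over KO8.

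**Figure D3:**
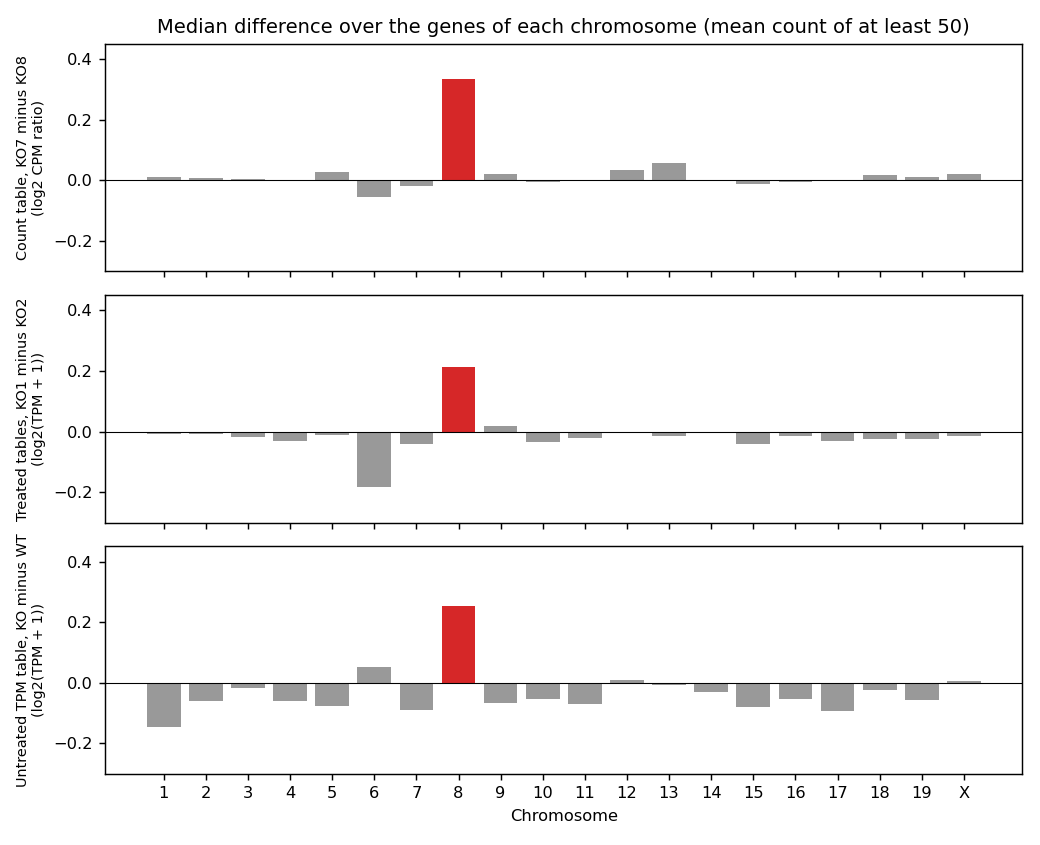
Median log2 difference over the genes of each chromosome with a mean count of at least 50, in 3 contrasts, with chromosome 8 in red. Chromosome 8 has the highest bar in each panel, at 0.33, 0.21 and 0.25.

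On a linear scale, the members in KO7 were at a median of 1.27 times WT and 1.30 times KO8 once the median ratio of other autosomes was set to 1. KO8 was at 0.99 times WT. Among members with a mean of at least 5 TPM, KO1 was at 1.27 times WT and 1.23 times KO2, KO2 at 1.02 times WT, and the untreated TPM knockout at 1.25 times WT. By table, KO1 was at 1.27 with activin A, 1.26 with SB431542, 1.27 with BMP4 and 1.30 with LDN193189, and KO2 at 1.00, 0.99, 1.08 and 1.07. A ratio of 3 to 2 would be 1.5, and all these medians lay below it. For KO7 over KO8, 96 of 503 members (19.1%) reached 1.5, 348 (69.2%) lay from 1 to 1.5 and 59 (11.7%) below 1. For KO1 over KO2, 35 of 450 (7.78%) reached 1.5 and 55 (12.2%) were below 1, and for the untreated TPM knockout over WT these were 42 of 475 (8.84%) and 54 (11.4%).

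**Figure D4:**
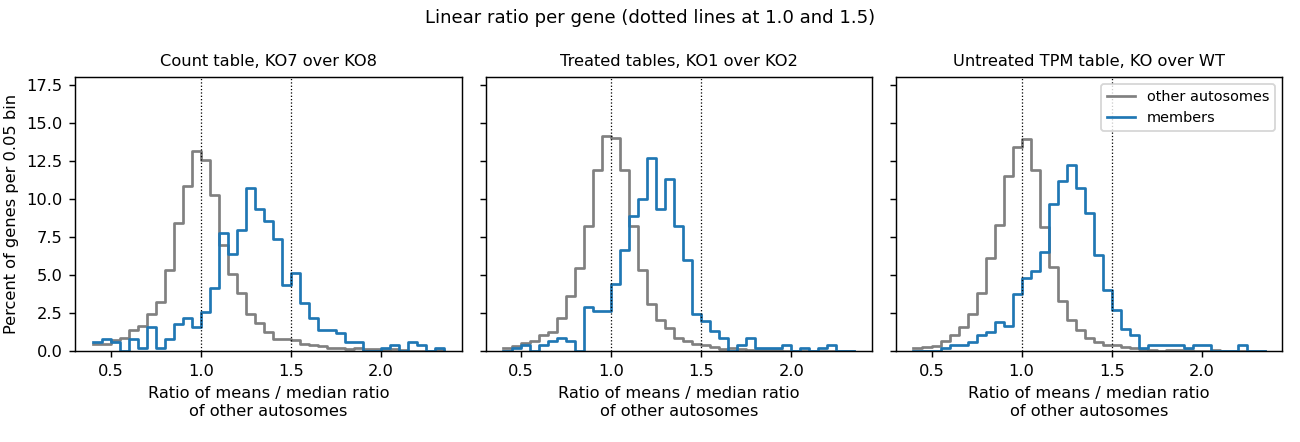
Share of genes per bin of 0.05 by the linear ratio of group means divided by the median ratio of other autosomes, for the members (blue) and other autosomes (grey), with dotted lines at 1.0 and 1.5. The members form 1 displaced peak in each panel, with medians of 1.30, 1.23 and 1.25.

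The members spread about their median as widely as other genes spread about theirs. The interquartile range of KO7 over KO8 was 0.33 in the members and 0.31 on other autosomes, that of KO1 minus KO2 0.27 and 0.28, and that of the untreated difference 0.29 and 0.29. Within 0.25 of the median lay 339 of 503 members (67.4%) for KO7 over KO8 and 373 of 490 (76.1%) for KO1 minus KO2. Members split into 3 equal sets by counts per kilobase had medians of 0.33, 0.44 and 0.36 for KO7 over KO8, from the lowest set to the highest, and 0.19, 0.28 and 0.30 for KO1 minus KO2. The interquartile range narrowed from 0.45 in the lowest set to 0.21 in the highest for KO1 minus KO2. The 3 sets by exon length had medians of 0.27, 0.27 and 0.26 for KO1 minus KO2, and plus-strand and minus-strand members 0.25 and 0.29.

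Members that did not share the shift were counted next. KO7 was lower than KO8 for 58 members of the count table, for 59 with the size factors of DESeq2 and for 65 with total counts. Of these 58, 56 were in the treated tables, and 38 (67.9%) were also lower in KO1 than in KO2, with a median of -0.14 over the 56. Of the other 434 members, 35 (8.06%) were lower in KO1, with a median of 0.29. Of the 38, 15 were below WT in the untreated TPM table, as were 87 of all 503 members and 6321 of 10733 genes. Their median mean count was 203, against 543 for all members. Across the 490 members, Pearson's r between KO7 over KO8 and KO1 minus KO2 was 0.70, and it was 0.64 across 9454 genes of other autosomes and 0.53 across 100 chromosome 8 genes below 30 Mb. Genes are not independent replicates, these values carry no test, and the labels do not match the line names of the 2 axes.

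To test single members against the joint shift, the median level of the members was subtracted from each library. A difference of 0 is then a gene that moved with that median level, which is not the median of the members' changes. In KO1 minus KO2 the subtraction took Cpe from 1.94 to 1.72, a smaller step than the median change of 0.27. A member at the median change thus lies slightly above 0 there, which favours calls above the joint shift. By limma over all genes, 28 of 485 members lay below the joint shift in KO1 minus KO2 and 35 above it, where 24% of all genes lay below and 1.13% above. All 28 had a KO7 over KO8 ratio under the members' median, and 21 were lower in KO7 than in KO8. Of the 35, 30 had a ratio over the median. In KO1 minus WT, 84 members lay below and 121 above, against 42.1% and 4.86% of all genes, and in KO2 minus WT 78 and 88, against 16.8% and 12.4%. For the untreated TPM knockout, 63 of 501 lay below and 67 above, against 46.3% and 1.79% of all genes. Of the members below in KO1 minus KO2, 12 (42.9%) were also below in the untreated table, which is 19.0% of that table's list. Above in both were 8 members (22.9% and 11.9%), and 12 were called on opposite sides. The same overlaps were not counted over all genes, so none of them is read as particular to the members. Genes of other autosomes also ran together between the 2 pairs of knockout lines, at the r of 0.64 given above.

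**Figure D5:**
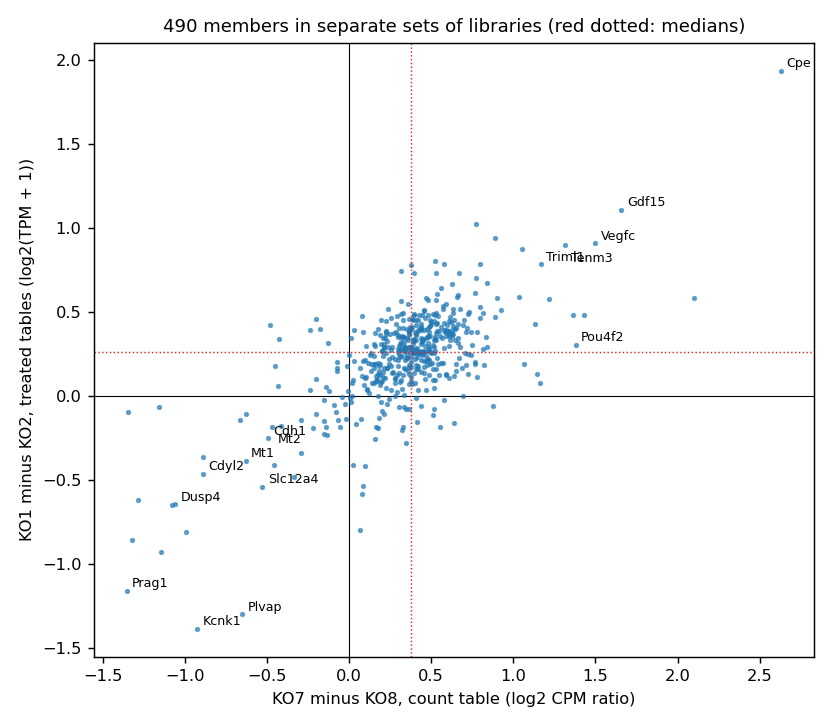
Each of 490 members by KO7 minus KO8 in the count table (x axis, log2 CPM ratio) and KO1 minus KO2 in the treated tables (y axis, log2(TPM + 1)), with the medians dotted in red. Most members lie in the upper right quadrant about 0.38 and 0.27, and 38 lie below 0 on both axes.

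Among the 8 members farthest below the median for KO7 over KO8 with a mean count of at least 200, Dusp4 (chr8:34807610-34819894), a phosphatase that switches off MAP kinases, was the lowest at -1.06. It had 24.5 and 27.8 CPM in WT, 29.5 and 29.5 in KO7 and 64.5 and 58.3 in KO8. In the treated tables it had 34.1, 40.1, 24.1 and 29.3 TPM in KO1 (activin A, SB431542, BMP4 and LDN193189), 46.2, 54.1, 47.3 and 51.3 in KO2, and a lowest, median and highest of 30.5, 40.3 and 49.3 in WT. The KO1 and KO2 libraries did not overlap, and KO1 was lower in 4 of 4 tables. KO1 minus KO2 was -0.64 (SE 0.13, adjusted p = 0.0054, limma), and the gene lay 0.86 below the joint shift (adjusted p = 0.00024). In the untreated TPM table it had 16.3 and 17.2 TPM in WT and 39.7 and 38.6 in HMCES-KO, a difference of 1.18 (SE 0.080, adjusted p = 0.0022, limma), and lay 0.95 above the joint shift there.

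Cdh1 (chr8:106603350-106670247) encodes E-cadherin, the adhesion molecule of epithelia and embryonic stem cells. It had 555 and 526.3 CPM in WT, 481 and 485 in KO7 and 692 and 668 in KO8. It had 101, 98.6, 116 and 104 TPM in KO1, 123, 117, 124 and 136 in KO2 and 124, 130 and 138 (lowest, median, highest) in WT, so KO1 lay below all WT libraries. KO1 minus KO2 was -0.25 (SE 0.067, adjusted p = 0.032, limma), a call lost in 9 of 22 alternatives. Its distance from the joint shift was -0.47 (adjusted p = 0.00022) and was called in all 22. In the untreated TPM table Cdh1 was higher in HMCES-KO, at 530 and 518 TPM against 417 and 412, and its distance from the joint shift there was not called.

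Cdyl2 (chr8:116568724-116732991), a chromodomain protein of the CDY family, was lower in both knockout lines. It had 248 and 229 CPM in WT, 92.7 and 95.0 in KO7 and 169 and 179 in KO8. It had 13.3, 15.2, 11.8 and 13.5 TPM in KO1, 15.96, 18.5, 22.6 and 18.8 in KO2 and 30.8, 34.7 and 41.4 in WT, and the 3 groups did not overlap. It fell by 1.33 in KO1 (SE 0.11, adjusted p = 2.8e-07) and by 0.86 in KO2 (adjusted p = 2.8e-05), by limma. KO1 minus KO2 was -0.46 (adjusted p = 0.034), and 0.68 below the joint shift (adjusted p = 0.0011). In the untreated TPM table it fell by 0.89 (SE 0.054, adjusted p = 0.0015, limma), from 92.8 and 89.95 TPM to 49.3 and 48.5.

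Slc12a4 (chr8:105943590-105966115), a potassium-chloride cotransporter, had 45.7 and 45.1 CPM in KO7, 66.8 and 64.2 in KO8 and 48.3 and 53.3 in WT. KO2 rose above WT in the treated tables, with 20.1, 15.996, 17.96 and 17.3 TPM against 10.2, 11.5 and 12.8 in WT (log2 difference 0.59, SE 0.11, adjusted p = 0.00069, limma). KO1 stayed among or just above the WT values, with 11.6, 13.5, 12.3 and 10.6 TPM (0.05, adjusted p = 0.73). Its distance from the joint shift in KO1 minus KO2 was -0.75 (adjusted p = 0.00075).

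Mt1 (chr8:94179089-94180327) and Mt2 (chr8:94172618-94173567) had KO7 over KO8 ratios of -0.63 and -0.47. Mt1 had 409 and 464 CPM in WT, 542 and 450 in KO7 and 790 and 746 in KO8, and Mt2 648 and 724, 844 and 753, and 1129 and 1085. In the treated tables Mt1 had 1867, 2462, 2147 and 1979 TPM in KO1 and 2267, 2857, 3249 and 2697 in KO2, with 2388, 3136 and 4233 (lowest, median, highest) in WT. Mt2 had 3077, 3778, 3488 and 3261 TPM in KO1 and 3377, 4315, 4171 and 3618 in KO2, with 2562, 3324 and 3925 in WT. KO1 was below KO2 in 4 of 4 tables for both genes, although the ranges of the lines overlapped. KO1 minus KO2 itself was not called (Mt1 -0.38, adjusted p = 0.11; Mt2 -0.18, adjusted p = 0.25, limma). Their distances from the joint shift were, at -0.60 (adjusted p = 0.0036) and -0.40 (adjusted p = 0.0026).

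Mt1 fell in KO1 against WT by 0.58 (SE 0.12, adjusted p = 0.0014, limma), while Mt2 did not pass the test there (0.04, adjusted p = 0.72). In the untreated TPM table Mt1 went from 430 and 429 TPM to 354 and 319 (-0.35, SE 0.054, adjusted p = 0.013) and Mt2 from 879 and 890 to 637 and 503 (-0.64, SE 0.10, adjusted p = 0.015). Both lay below the joint shift there, by 0.59 and 0.88.

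The remaining 2 of the 8 lowest were Plcg2, a phospholipase C of receptor signalling, and Lonrf1, at -0.89 and -0.46 in the count table. Plcg2 had 22.2 and 22.3 CPM in KO7 and 40.1 and 42.5 in KO8. Neither passed the test for KO1 minus KO2 (Plcg2 -0.36, adjusted p = 0.49; Lonrf1 -0.41, adjusted p = 0.29, limma). Lonrf1 lay 0.62 below the joint shift there (adjusted p = 0.034), a call lost in 5 of 22 alternatives, among them leaving out either knockout library with LDN193189, KO2 with SB431542 or KO1 with activin A. Below the 200 count floor, Kcnk1, Plvap and Prag1 were the farthest below the joint shift in KO1 minus KO2, at -1.60 (adjusted p = 0.0081), -1.51 (adjusted p = 0.00023) and -1.37 (adjusted p = 0.0014), and were singled out after their values were seen. Of the 38 members lower in both pairs of lines, 7 pairs were consecutive in the order of members along the chromosome, from Mt2 and Mt1, 5522 bases apart, to Rasd2 and Arhgap10, 2026253 bases apart. How many such pairs 38 members would give by chance was not tested.

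The 8 members farthest above the median in the count table were Cpe, Vegfc, Pou4f2, Tenm3, Triml1, Herpud1, 2810013P06Rik and Apela, with KO7 over KO8 ratios from 1.04 to 2.63. Cpe (chr8:64592551-64693109), carboxypeptidase E of peptide hormone processing, had 20.9 and 15.8 CPM in WT, 47.0 and 47.3 in KO7 and 7.57 and 7.67 in KO8. It had 38.9, 43.7, 53.0 and 60.3 TPM in KO1, 9.47, 9.45, 16.9 and 12.9 in KO2 and 18.3, 26.01 and 34.02 in WT, so the 3 groups did not overlap. KO1 rose by 0.90 (SE 0.16, adjusted p = 0.00042), KO2 fell by 1.04 (SE 0.16, adjusted p = 0.00020), and the lines differed by 1.94 (SE 0.18, adjusted p = 1.2e-05, limma). The last lay 1.72 above the joint shift (adjusted p = 9.7e-06).

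Triml1 (chr8:43129807-43141486), a TRIM family member, and Zfp42 (chr8:43295067-43307009), a zinc finger marker of naive pluripotent cells, lie close together. Triml1 had 163 and 139 CPM in WT, 186 and 188 in KO7 and 85.0 and 81.6 in KO8. It had 543, 532, 547 and 536 TPM in KO1, 312, 293, 341 and 307 in KO2 and 344, 399 and 449 in WT, and KO1, WT and KO2 did not overlap. The lines differed by 0.78 (SE 0.065, adjusted p = 3.1e-06, limma), 0.57 above the joint shift. In the untreated TPM table it had 201 and 214 TPM in WT and 182 and 176 in HMCES-KO, and lay 0.44 below the joint shift (adjusted p = 0.0035). Zfp42 had 1325 and 1304 CPM in KO7, 1010 and 1032 in KO8 and 995 and 1058 in WT. It was 0.37 higher in KO1 than in KO2 (SE 0.053, adjusted p = 0.00045, limma), and higher in 4 of 4 tables.

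Vegfc, a growth factor for lymphatic vessels, had 72.8 and 71.1 CPM in KO7, 26.5 and 24.5 in KO8 and 39.9 and 41.8 in WT. It had 57.3, 68.0, 75.6 and 95.1 TPM in KO1 and 39.1, 42.2, 30.3 and 42.8 in KO2, a difference of 0.91 (SE 0.15, adjusted p = 0.0014, limma). Among the untreated TPM libraries Vegfc had 66.6 and 74.98 TPM in WT and 60.4 and 56.6 in HMCES-KO, a difference of -0.27 that was not called (adjusted p = 0.070), and it lay 0.50 below the joint shift there (adjusted p = 0.0066). Tenm3, a teneurin adhesion receptor, had 179 and 191 CPM in KO7 and 74.8 and 73.8 in KO8, and differed by 0.90 between KO1 and KO2 (SE 0.13, adjusted p = 0.00041). That call was lost without the treatment term (adjusted p = 0.21). Apela, a ligand of the apelin receptor, differed by 0.59 (SE 0.17, adjusted p = 0.043). Pou4f2, a POU transcription factor, and Herpud1, a gene induced by endoplasmic reticulum stress, did not pass the test (0.30, adjusted p = 0.20; 0.43, adjusted p = 0.39). Pou4f2 was 1.08 higher in the untreated TPM knockout (SE 0.066, adjusted p = 0.0014), at 84.9 and 78.6 TPM against 37.5 and 38.6. 2810013P06Rik was in the untreated TPM table, where it was not called (0.22, adjusted p = 0.16).

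The members were also read by role, in 5 lists of chromosome 8 genes. For signalling and cell identity, 10 of 20 listed genes were members, with a median of 0.35 for KO1 minus KO2, 6 higher and 1 lower, where all tested members had a median of 0.27 and 25.4% higher. Of the 10, 7 were higher in the untreated TPM knockout than in its WT, where 40.9% of all tested members and 5.61% of all genes were higher. No list was tested against the other members. Klf2, a factor of naive pluripotency, was higher in both lines of both sets. It had 338 and 362 CPM in WT, 830 and 850 in KO7 and 757 and 759 in KO8. It rose by 1.34 in KO1 (SE 0.053, adjusted p = 9.7e-11) and 1.03 in KO2 (SE 0.053, adjusted p = 4.5e-09), by limma, with KO1 above KO2 in 4 of 4 tables (0.31, adjusted p = 0.0048). Gab1, an adaptor of receptor tyrosine kinases, had 450 and 479 CPM in WT, 817 and 806 in KO7 and 655 and 663 in KO8. It differed by 0.36 between KO1 and KO2 (adjusted p = 0.0055) and by 0.95 in the untreated table (SE 0.036, adjusted p = 0.00038), where it rose from 307 and 309 TPM to 608 and 583.

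For chromatin and transcription, all 24 listed genes were members, with a median of 0.27, 10 (41.7%) higher and 0 lower in KO1 than in KO2, against 25.4% of all tested members higher, and 12 (50.0%) higher and 0 lower in the untreated table, against 40.9%. E2f4, a cell cycle transcription factor, had 512 and 524 CPM in KO7, 377 and 367 in KO8 and 343 and 403 in WT. In the treated tables E2f4 fell in both lines, by 0.21 in KO1 (adjusted p = 0.0092, and 0.12 when libraries were centred on genes off chromosome 8) and by 0.48 in KO2 (adjusted p = 1.9e-05, limma), and was still 0.27 higher in KO1 than in KO2 (adjusted p = 0.023). Sap30, a subunit of the Sin3 histone deacetylase complex, was 0.32 higher in KO1 than in KO2 (adjusted p = 0.014). Nacc1, a BTB-domain regulator, was 0.52 higher (adjusted p = 0.0011), and it overlaps Trmt1 on the opposite strand, which the counting may not separate because no strand setting is given.

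For DNA replication, repair and chromosome segregation, 19 of 20 listed genes were members, with a median of 0.29, 5 (26.3%) higher and 0 lower in KO1 than in KO2, and 8 (42.1%) higher and 0 lower in the untreated table. These shares were near the 25.4% and 40.9% of all tested members. Mcm5, a subunit of the replicative helicase, had 728 and 714 CPM in KO7, 472 and 467 in KO8 and 467 and 505 in WT. It had 321, 300, 400 and 398 TPM in KO1 and 230, 245, 294 and 270 in KO2, a difference of 0.44 (SE 0.077, adjusted p = 0.0022, limma). Cdt1, which licenses replication origins, was 0.26 higher in KO1 (adjusted p = 0.028). Gins2, of the GINS complex, was 0.38 higher (adjusted p = 0.013), and it overlaps Gse1 on the opposite strand.

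For RNA, protein and mitochondrial housekeeping, 22 of 23 listed genes were members, with a median of 0.24, 6 (27.3%) higher and 0 lower in KO1 than in KO2, near the 25.4% of all tested members, and 15 (68.2%) higher and 0 lower in the untreated table, against 40.9%. Calr, the chaperone calreticulin, had 1132 and 1077 CPM in KO7, 909 and 910 in KO8 and 822 and 860 in WT, and did not pass the test between KO1 and KO2 (0.22, adjusted p = 0.096). Slc25a4, the mitochondrial ADP/ATP carrier, was higher than WT in both lines, with no call between them (0.03, adjusted p = 0.76). It had 668 and 623 CPM in KO7, 696 and 709 in KO8 and 431 and 480 in WT, and rose by 0.51 in KO1 (SE 0.040, adjusted p = 2.4e-07) and 0.47 in KO2 (SE 0.040, adjusted p = 1.0e-06), by limma. Cox4i1, a subunit of cytochrome c oxidase, rose by 0.26 in KO1 (adjusted p = 0.0014), and its KO1 minus KO2 difference of 0.15 was not called (adjusted p = 0.17).

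For stress-inducible and metabolic genes, 16 of 18 listed genes were members, with a median of 0.30, 7 (43.8%) higher and 0 lower in KO1 than in KO2, against 25.4% of all tested members higher. Against the untreated WT, 11 of them (68.8%) were higher and 2 lower, Mt1 and Mt2, compared with 205 higher (40.9%) and 10 lower of all 501 tested members. Ier2, an immediate early gene, had 477 and 475 CPM in KO7, 331 and 346 in KO8 and 306 and 350 in WT. It had 3210, 2881, 3225 and 3269 TPM in KO1 and 2433, 2053, 2414 and 2520 in KO2, which did not overlap, a difference of 0.42 (SE 0.045, adjusted p = 5.0e-05, limma). KO1 rose by 0.74 (adjusted p = 3.2e-09) and KO2 by 0.32 (adjusted p = 2.1e-05) over WT. In the untreated table Ier2 rose by 0.58 (SE 0.037, adjusted p = 0.0016), from 436 and 448 TPM to 648 and 676.

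Several of the named KO1 minus KO2 calls rested on 1 library or on the treatment term. Those of Slc12a4 were lost without KO1 with LDN193189 or KO2 with activin A, and those of Gins2 without the same 2 libraries. Those of Sap30 were lost without KO2 with BMP4 or KO1 with activin A, and those of Cdt1 without either knockout library of the activin A or BMP4 table. Those of Cdyl2, Cdh1, E2f4 and Apela were each lost without any of 5 or more single libraries. Those of Klf2 and Zfp42 were lost only without the treatment term (adjusted p = 0.25 and 0.055, limma). The calls of Cpe, Triml1, Vegfc, Dusp4, Gab1, Mcm5, Nacc1 and Ier2 between the lines remained in all 22 alternatives. The distances from the joint shift of Dusp4, Cdh1, Cdyl2, Slc12a4, Mt1, Mt2, Cpe, Triml1 and Vegfc did so as well.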

How the data were processed

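Counts per gene were deposited by the authors as whole numbers of paired reads, summed over exons of the mm10 RefSeq annotation by featureCounts 2.0.1, per the file headers. The other 5 tables held TPM as deposited by the authors. FastQC 0.11.5, Bowtie2 2.3.3, SAMtools 1.9 and DESeq2 were also named, per the submitters' processing notes. The roles of these tools, a strand setting and the filter behind the treated gene lists are not given in the sources used here.

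Counts were scaled to CPM by TMM (edgeR 4.0.16). TPM was tested with limma 3.58.1 (R 4.3.3, trended prior) on log2(TPM + 1), which understates the change of low genes, for genes with a mean TPM of at least 1, with Benjamini-Hochberg adjustment over all genes and calls at an adjusted p under 0.05. The 16 treated libraries were fitted with line and treatment, on the 12928 genes in all 4 tables, which held 99.949% to 99.969% of TPM. The whole reads behind the untreated TPM were recovered with the gene lengths of the count table, and 100% of values above 0 came out whole within 0.01 reads. The replicate numbers of the untreated TPM table were not taken as pairs: the deviations of same-numbered libraries correlated at 0.029. The fit was tested on simulated data. Tables were normalized separately, so tests stayed within the untreated table and across the treated tables with the treatment as a term.

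The members, lists, rules and tests were chosen with earlier results of these data known. Named genes are the 3 members of each list with most counts per kilobase, the 8 farthest below and above the median of KO7 over KO8 with a mean count of at least 200, the genes at the thresholds, the last member and Hmces. Alternatives were the library scaling, pseudocount, filter, variance prior, centring, treatment term, thresholds of the member rule and leaving out each library.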

Additional observations from a re-analysis of the deposited data

Results flagged for a closer look

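A set of 3 named members was called in opposite directions in KO1 and KO2 against WT after treatment, and the difference between the lines was itself tested by limma. All 3 had been named for extreme KO7 over KO8 ratios, a choice that may favour differences between lines. How many of all members, or of all genes, were so called was not counted. The number 3 is therefore not read as a trait of the members. Cpe was higher in KO1 and lower in KO2, a difference of 1.94 (adjusted p = 1.2e-05). Triml1 was higher in KO1 and lower in KO2, a difference of 0.78 (adjusted p = 3.1e-06). Dusp4 was lower in KO1 and higher in KO2, a difference of -0.64 (adjusted p = 0.0054), which kept its call in all 22 alternatives, while its calls against WT were lost in 9 for KO1 and in 8 for KO2. The treated libraries of WT, KO1 and KO2 were tested for a library far from the others in the members' median and in the step at 30 Mb, and none was found in these 6 tests. Such a test does not address a split between tables. The KO1 steps were 0.34 and 0.34 with activin A and SB431542, and 0.49 and 0.51 with BMP4 and LDN193189.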

How the results depend on the processing

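No called result changed direction under any alternative run, while the medians of KO8 over WT and KO2 minus WT, both near 0, took either sign. With total counts the count-table medians were 0.30 (KO7 over WT), -0.0533 (KO8 over WT) and 0.35 (KO7 over KO8). With a mean count of at least 10 the first 2 were 0.35 and -0.0188, with at least 200 KO7 over WT was 0.41 and KO7 over KO8 0.40, and from 20 Mb KO7 over WT was 0.35. Leaving out each library gave 0.357 to 0.389, -0.028 to 0.012 and 0.370 to 0.386. For KO1 minus WT the median was 0.27 with a pseudocount of 0.1, 0.27 with a mean TPM of at least 5, and 0.242 to 0.273 without each library. Centring on genes off chromosome 8 gave 0.35 for KO1 minus WT, 0.0388 for KO2 minus WT, 0.32 for KO1 minus KO2 and 0.37 in the untreated table. Without the treatment term, 70 members were higher in KO1 than in KO2 and 22 above the joint shift. Without each library, 4 to 12 were lower, 18 to 37 above the joint shift and 17 to 30 below it. Calls from the joint shift of at least 0.5 numbered 45 above and 43 below (KO1 minus WT), 33 and 35 (KO2 minus WT), 12 and 16 (KO1 minus KO2) and 10 and 23 (untreated). The shares of all genes under these alternatives and at this limit of 0.5 were not counted. The counts show how the calls of members vary and are not read as particular to the members.

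The untreated TPM table, with 2 libraries a group, depended most on the processing. Its counts of members under the alternatives likewise stand without the shares of all genes. Without the trended prior 10 members were higher and 2 lower, with 29 above the joint shift. No filter left 5 lower and centring 6. Without each library 0 to 127 were higher, 0 to 6 lower, 35 to 55 above and 29 to 48 below the joint shift, with medians of 0.238 to 0.271. With the replicate number as a block, 199 were higher and 7 lower, though the numbers do not pair the libraries. Depth limits the members near a mean count of 50.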
